A study of Homo sapiens with 8 samples.

Results

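Glycolysis after hexokinase and the pentose phosphate pathway were examined at the level of mRNA in A549, an established cell line from a human lung adenocarcinoma. The genes were a list of 33 enzymes, regulators and transporters taken from textbook membership, and every probe set that the platform annotation ties to one of them alone was used. Such probe sets were found for 31 of the 33 genes, and 2 listed lactate transporters, SLC16A1 and SLC16A3, had none and were not analysed here. The 31 genes had 70 probe sets of 54675 on the array, and all 31 were among the 13584 genes tested. A gene was represented by its brightest probe set, and probe sets whose mean log2 signal over all arrays was below 4.80 were left out as dim.

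The cells carried either a control siRNA, a short RNA that directs the loss of a matching transcript, or an siRNA against steroid receptor coactivator 1 (SRC-1), which NCOA1 encodes and which helps nuclear receptors to activate transcription. They were kept for 36 h in 10% dialyzed fetal calf serum, which lacks small molecules such as sugars, and then received DMEM plus this serum, either with glucose or free of it. Each siRNA was thus combined with each medium, which gave 4 groups of 2 arrays. The time in the last medium, the glucose concentration and the siRNA sequences are not given in the sources used here, and a single cell line was used. The 2 arrays of a group are called biological replicates in the labels, and they are named array 1 and array 2 here by their label numbers.

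Glycolysis turns glucose into pyruvate, with a small yield of ATP and NADH, and lactate dehydrogenase can pass the electrons of NADH on to pyruvate, which restores NAD. Once hexokinase has phosphorylated glucose, the product may run down this pathway, be stored through glucose 1-phosphate, or enter the pentose phosphate pathway, which supplies NADPH and the ribose of nucleotides. Tumour cells such as A549 are known for high glycolytic flux. The series title names glucose and the balance of NAD(+) and NADH, and its design compares SRC-1 loss in each medium.

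Median log2 signals of the arrays were 4.97 to 5.01, and their highest signals 14.64 to 14.69. Precision is limited by the number of arrays: a difference between 2 groups had a median standard error (SE) of 0.0689 on the log2 scale for the 31 genes and 0.0834 for all genes. The target of the siRNA was checked first. NCOA1 signals were 8.34 and 8.24 with control siRNA against 5.22 and 5.09 with SRC-1 siRNA in medium without glucose, and 8.60 and 8.42 against 5.47 and 5.18 with glucose. All 4 arrays with SRC-1 siRNA lay below all 4 with control siRNA, as the labels state. The epithelial markers EPCAM, KRT8, KRT18, KRT19 and CDH1 had mean signals between 8.09 and 14.32. The aldo-keto reductases AKR1B10 and AKR1C3, enzymes that were listed with them for A549, were at 14.25 and 14.11. Of 12 markers of blood, endothelium, fibroblasts and skeletal muscle, 5 were below the filter (PTPRC, CDH5, COL3A1, MYH1 and ACTA1). The other 7 were above it, the collagen COL1A1 at 7.88 and CD3E, CD14, PECAM1, VWF, DCN and PDGFRB between 5.01 and 5.80. Since RNA came from whole cultures, fewer cells that express a gene and less RNA per cell cannot be told apart.

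The first question was how glucose alters these genes when SRC-1 is not targeted. Most enzymes from aldolase to pyruvate kinase were modestly higher with glucose, and so were the regulator PFKFB3 and both enzymes that make the activated ribose of nucleotides, PRPS1 and PRPS2. PGLS, of the oxidative pentose phosphate branch, was lower, and so was PFKFB2 by its brightest probe set. Of the 31 genes, 16 were called higher and 2 lower at an adjusted p of 0.05 and 13 were not called. The 18 calls are 58.1% of the genes, where 45.2% of all 13584 genes were called, 23.6% higher and 21.6% lower. The median log2 difference was 0.19 for the 31 genes and 0.00088 for all genes. A change of 2-fold was rare among all genes (585 of 13584), and 0 of the 31 genes reached it. The extremes of the 31 were PGLS at -0.69 and PFKFB3 at 0.79. The median absolute log2 difference was 0.22 for the 31 genes and 0.21 for all genes.

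With SRC-1 siRNA the same comparison called 18 of the 31 genes higher and 2 lower, and 11 were not called. The 20 calls are 64.5%, where 44.7% of all genes were called, 24.6% higher and 20% lower. The median was 0.22 for the 31 genes and 0.0059 for all genes. Without array 1 of the SRC-1 siRNA group without glucose the calls numbered 12. This arm shares no array with the first. In both arms 16 genes were called higher, where 20.6% of all genes were, and 2 genes were called lower, where 17.4% were. The other 2 calls, PFKL and TPI1, passed in the SRC-1 siRNA arm and not in the control arm, and for neither was the difference between the arms called. In 19 genes all 4 arrays with glucose lay above all 4 without, where 28.6% of all genes did so, and in 4 they all lay below, where 25.3% did so. The plot of log2 differences by gene sets both arms side by side.

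**Figure D1:**
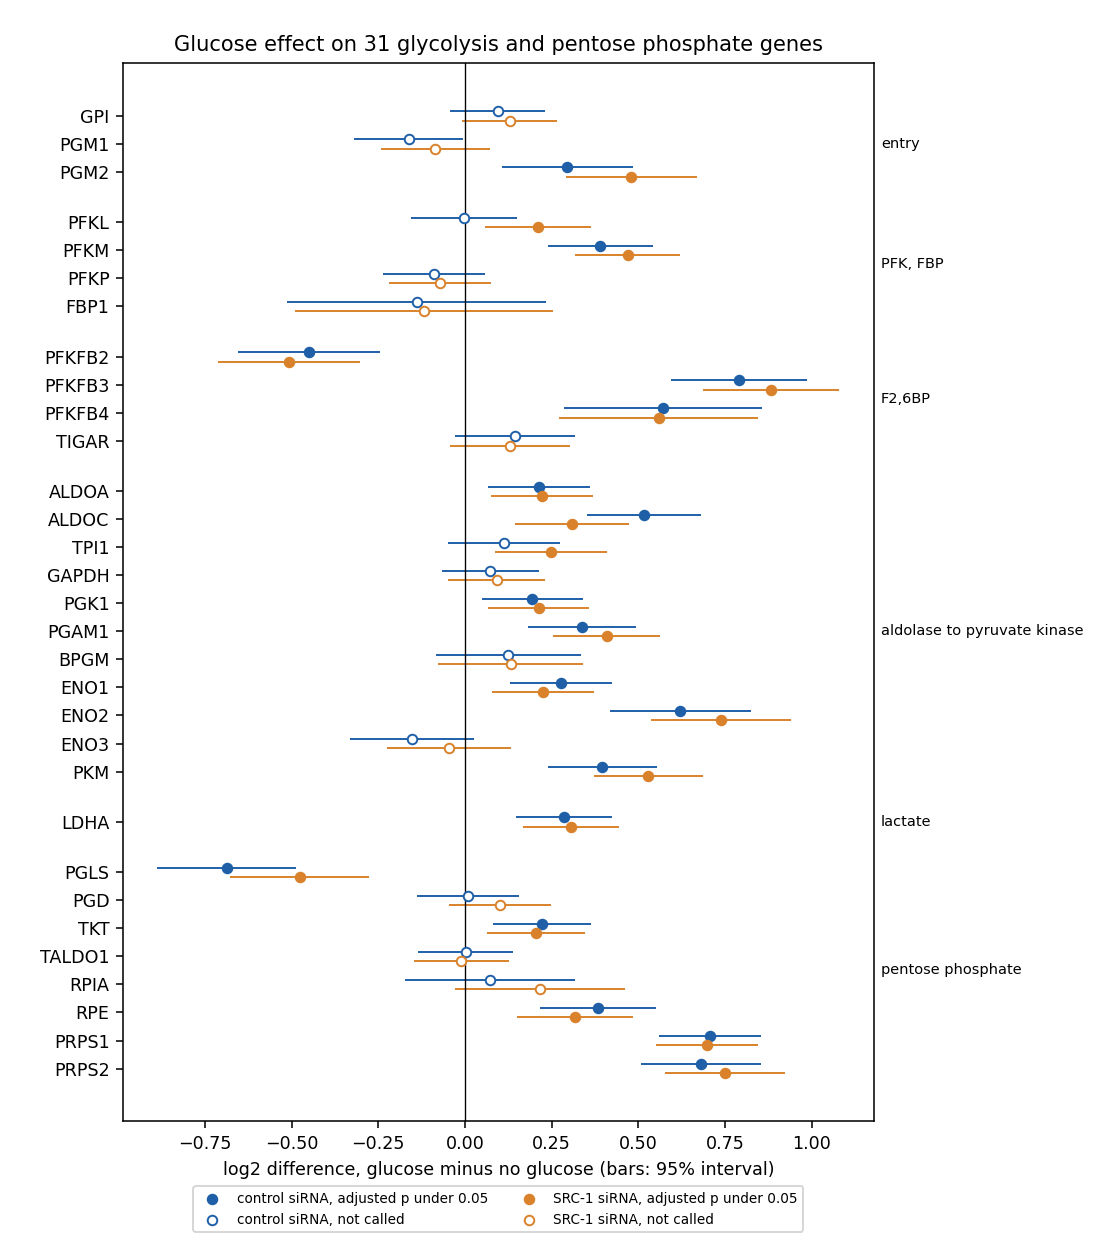
Log2 difference between medium with and without glucose for the 31 genes, in the control siRNA arm (blue) and the SRC-1 siRNA arm (orange), each from 2 arrays against 2. Bars are 95% intervals, filled points have an adjusted p under 0.05, and F2,6BP marks the enzymes that set the level of fructose-2,6-bisphosphate. PFKFB3, PRPS1, PRPS2 and ENO2 lie farthest to the right and PGLS and PFKFB2 farthest to the left in both arms.

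The sequences before the start sites are shown for genes that changed in both arms. RefSeq (GRCh38.p14) gave start windows, from 250 bases before to 50 after a gene's start, for 31 of the 33 listed genes, 52 windows in all since some genes have several. Those shown are PFKFB3, the largest rise in both arms, LDHA, ALDOC and ENO2, which also rose, and PGLS, one of the 2 genes that fell. Capitals mark ACGTG on either strand, the core of hypoxia response elements, including where it lies within CACGTG, the palindromic E-box. For PFKFB3 and LDHA, which have 2 windows each, the window with most matches is shown. The shown genes that rose all hold ACGTG, so they do not stand for the whole list. It was found for 8 of the 16 genes called higher in both arms and for 8 of the 14 other tested genes with a window. PRPS1 and PRPS2, not shown, rose more than LDHA and ALDOC in both arms and had no ACGTG in their windows. Each line holds the 250 bases that end just before the start, 5′ to 3′ on the strand of the gene.
PFKFB3, plus strand, chr10:6202682-6202931: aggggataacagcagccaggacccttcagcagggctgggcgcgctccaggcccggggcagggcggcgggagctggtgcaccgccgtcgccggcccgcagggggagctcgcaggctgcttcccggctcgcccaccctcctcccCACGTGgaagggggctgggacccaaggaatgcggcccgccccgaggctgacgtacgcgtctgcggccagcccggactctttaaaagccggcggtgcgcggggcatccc
LDHA, plus strand, chr11:18394313-18394562: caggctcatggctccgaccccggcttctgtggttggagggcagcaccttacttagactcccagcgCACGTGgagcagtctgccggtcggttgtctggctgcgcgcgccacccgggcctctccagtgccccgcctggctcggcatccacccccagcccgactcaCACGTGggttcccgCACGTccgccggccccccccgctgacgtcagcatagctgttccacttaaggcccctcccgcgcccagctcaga
ALDOC, minus strand, chr17:28576896-28577145: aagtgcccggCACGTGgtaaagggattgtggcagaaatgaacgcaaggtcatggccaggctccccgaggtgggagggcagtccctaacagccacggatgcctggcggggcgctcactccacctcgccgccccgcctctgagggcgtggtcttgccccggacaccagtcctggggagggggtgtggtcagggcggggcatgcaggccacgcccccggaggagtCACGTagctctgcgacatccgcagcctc
ENO2, plus strand, chr12:6914330-6914579: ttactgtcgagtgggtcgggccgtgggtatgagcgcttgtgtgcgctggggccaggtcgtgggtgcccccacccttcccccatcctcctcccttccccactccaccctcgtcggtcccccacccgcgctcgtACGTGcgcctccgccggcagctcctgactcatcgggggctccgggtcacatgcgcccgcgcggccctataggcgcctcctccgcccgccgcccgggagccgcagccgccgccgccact
PGLS, plus strand, chr19:17511399-17511648: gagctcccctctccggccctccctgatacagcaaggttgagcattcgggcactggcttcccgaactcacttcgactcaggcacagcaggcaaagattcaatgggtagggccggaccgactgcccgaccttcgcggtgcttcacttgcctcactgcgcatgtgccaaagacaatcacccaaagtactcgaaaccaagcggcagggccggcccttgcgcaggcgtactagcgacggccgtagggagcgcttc

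ACGTG or its complement was found in 20 of the 52 windows (38.5%), where 21.4% of all 35116 windows of 300 bases hold it. CACGTG, which counts within ACGTG, was in 6 windows (11.5%), where 7.26% of all windows hold it. It lay in windows of PFKFB3, LDHA, ALDOA, ALDOC and PGM2, which were called higher in both arms, and of GAPDH, which was called in neither. ACGTG was found for 8 of the 16 genes called higher in both arms and for 8 of the 14 other tested genes with a window. TGACNNNGC, the letters of antioxidant response elements, was in 6 windows (11.5%, against 13.3% of all), and TGATGNAA, the core of amino acid response elements, in 0 (against 3.62% of all). A match of letters is a description and does not show a binding site.

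Entry into the pathway goes through GPI, which turns glucose 6-phosphate into fructose 6-phosphate, and through the phosphoglucomutases, which link glucose 1-phosphate to it. GPI was not called, with signals of 12.22 and 12.22 without glucose and 12.31 and 12.32 with it under control siRNA (0.094 ± 0.060, SE, n = 2 per group, adjusted p = 0.24, limma). PGM1, the main phosphoglucomutase, differed by -0.16 ± 0.068 under control siRNA and by -0.085 ± 0.068 under SRC-1 siRNA and was called in neither arm. PGM2, a phosphopentomutase that also acts on hexoses, rose in both. Its signals were 9.08 and 9.24 without glucose and 9.42 and 9.49 with it under control siRNA, and 9.04 and 9.19 against 9.58 and 9.62 under SRC-1 siRNA. All 4 arrays with glucose were above the 4 without, by 1.23-fold (adjusted p = 0.0185) and 1.40-fold (adjusted p = 0.00170). The mean of its probe sets differed by 0.30 under SRC-1 siRNA, where the brightest differed by 0.48. The control arm call of PGM2 was lost without array 1 of the group without glucose (adjusted p = 0.126) or array 2 of the group with glucose (adjusted p = 0.0886).

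The committed step is made by phosphofructokinase, whose subunits are encoded by PFKM (muscle type), PFKL (liver type) and PFKP (platelet type), and FBP1 runs it backwards in gluconeogenesis. The 3 subunit genes did not move alike. PFKM signals were 9.19 and 9.24 without and 9.65 and 9.56 with glucose under control siRNA, and 9.09 and 9.14 against 9.57 and 9.60 under SRC-1 siRNA. It rose 1.31-fold (0.39 ± 0.066, adjusted p = 0.00156) and 1.39-fold (0.47 ± 0.066, adjusted p = 5.93e-04), with no overlap between the media. PFKP, with signals between 12.16 and 12.31 in all 8 arrays, was not called in either arm (-0.089 and -0.073, SE 0.064).

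PFKL was called in the SRC-1 siRNA arm, from 7.15 and 7.26 to 7.39 and 7.44, but under control siRNA it stood at 7.28 and 7.23 without and 7.26 and 7.25 with glucose. The call rested on little, since it was lost without array 1 of the group without glucose (adjusted p = 0.189) or without array 1 (0.0694) or array 2 (0.127) of the group with glucose. It was also lost with quantile normalization (adjusted p = 0.0733), no filter (0.0691), only the groups compared (0.0646), a trended prior (0.0543) and the mean of probe sets (0.098, adjusted p = 0.219). The other PFKL probe set differed by 0.077 and -0.014 in the 2 arms and was not called. FBP1 lay close to the filter in every array, between 4.56 and 5.12, and was not called in either arm (-0.14 and -0.12, SE 0.16). Without array 2 of the SRC-1 siRNA group with glucose, which held its highest signal, FBP1 was called lower in that arm (-0.39, adjusted p = 0.0321), and without array 1 of that group the difference was 0.16.

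Fructose-2,6-bisphosphate is the strongest activator of phosphofructokinase, and the bifunctional PFKFB enzymes both make and remove it. PFKFB3 leans to synthesis, PFKFB2 is known from heart and kidney, PFKFB4 is inducible by low oxygen, and TIGAR, a p53 target, removes the activator and so favours the pentose phosphate branch. PFKFB3 signals were 10.70 and 10.85 without glucose and 11.48 and 11.65 with it under control siRNA. Under SRC-1 siRNA they were 10.79 and 10.88 without and 11.69 and 11.75 with glucose. The rise was 1.73-fold (0.79 ± 0.086, adjusted p = 1.52e-04) and 1.84-fold (0.88 ± 0.086, adjusted p = 8.29e-05), the largest among the 31 genes in each arm.

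PFKFB4 also rose, 1.49-fold (0.57 ± 0.12, adjusted p = 0.00585) and 1.47-fold (0.56 ± 0.12, adjusted p = 0.00655). Its 2 control arrays without glucose, at 6.32 and 5.94, lay farther apart than any other pair of this gene, and the control arrays with glucose were at 6.60 and 6.80. In the SRC-1 siRNA arm its signals were 6.17 and 6.21 without and 6.81 and 6.69 with glucose. PFKFB2 went the other way, from 7.88 and 7.77 to 7.31 and 7.44 under control siRNA and from 7.79 and 7.95 to 7.44 and 7.29 under SRC-1 siRNA. It fell 1.37-fold (-0.45 ± 0.090, adjusted p = 0.00364) and 1.42-fold (-0.51 ± 0.090, adjusted p = 0.00199), and all 4 arrays with glucose lay below the 4 without. Its 2 other tested probe sets were dimmer and were not called, at -0.062 and -0.098 under control siRNA and -0.22 and -0.21 under SRC-1 siRNA. With the mean of probe sets the fall was smaller but still called, at -0.20 and -0.31. A further PFKFB2 probe set, under the filter at a mean signal of 4.40 and not tested, was higher with glucose by 0.41 and 0.77. In it all 4 arrays with glucose lay above the 4 without, against the direction of the brightest. TIGAR differed by 0.15 and 0.13 (SE 0.076), with overlapping media, and was not called.

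**Figure D2:**
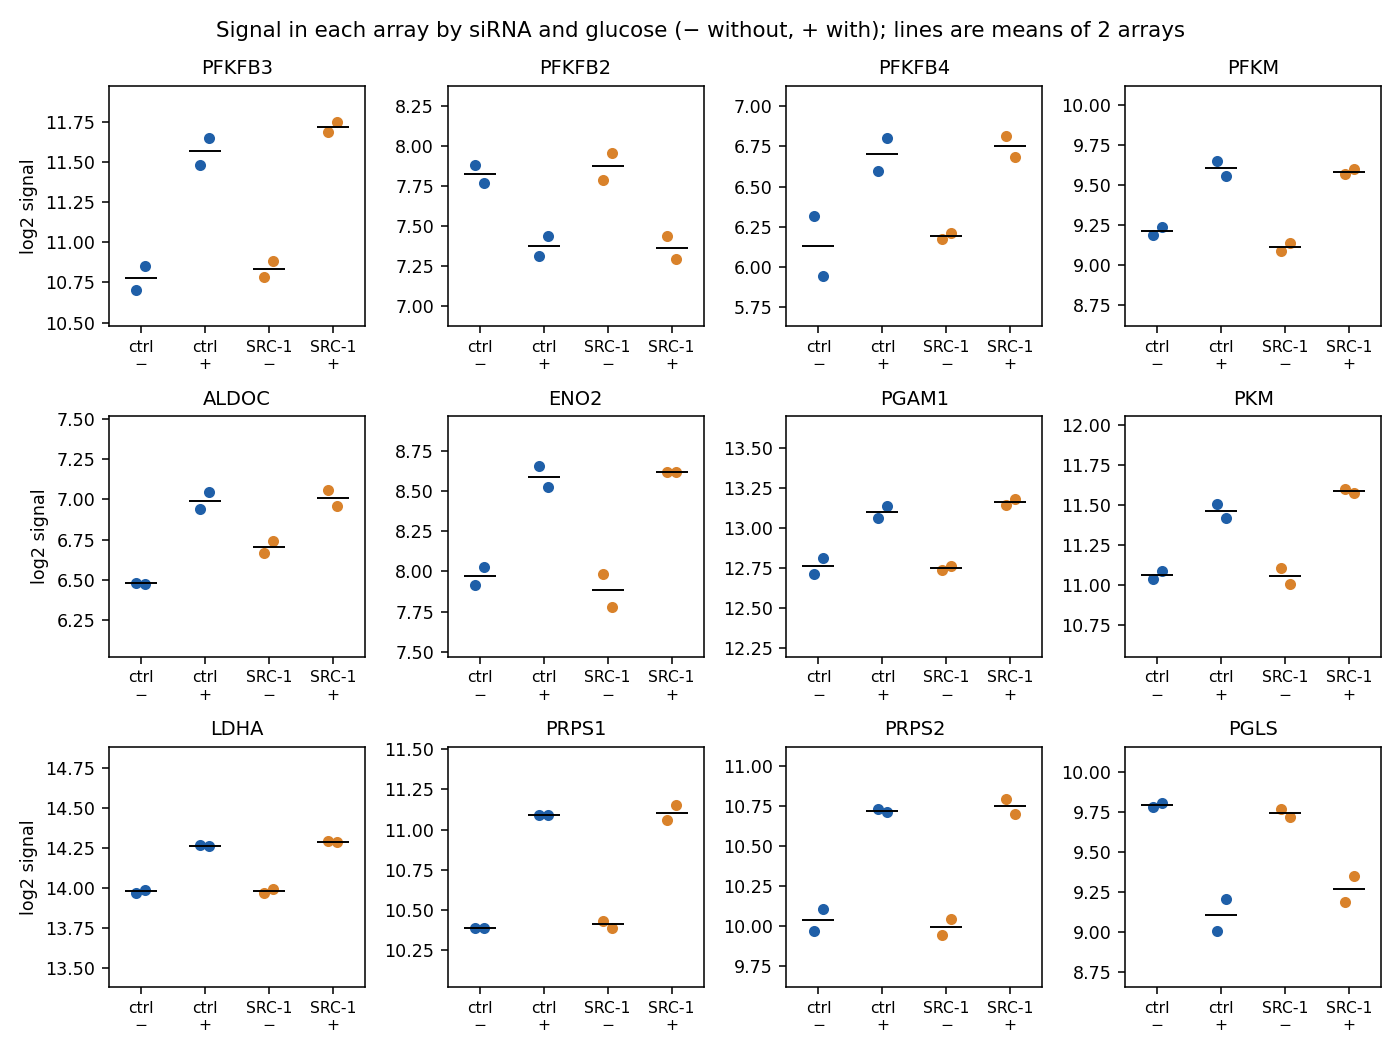
Log2 signal of 12 genes in each of the 8 arrays, by siRNA (ctrl, control; SRC-1) and medium (− without and + with glucose), with lines at the mean of 2 arrays. Every panel spans the same 1.5 log2 units, so that steps compare between genes while levels do not. PFKFB2 and PGLS step down with glucose under either siRNA and the other 10 genes step up.

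From aldolase to pyruvate kinase, 7 of 11 genes were called higher under control siRNA, 8 under SRC-1 siRNA and 0 lower in either arm, where 23.6% and 24.6% of all genes were called higher. In 9 of the 11 all 4 arrays with glucose lay above the 4 without, where 28.6% of all genes did so. ALDOC, the aldolase best known from brain, stood at 6.48 and 6.48 without and 6.94 and 7.05 with glucose under control siRNA. Under SRC-1 siRNA it stood at 6.67 and 6.74 without and 7.06 and 6.96 with glucose. The rise was 1.43-fold (0.52 ± 0.072, adjusted p = 5.66e-04) and 1.24-fold (0.31 ± 0.072, adjusted p = 0.00803), and the second call was lost when array 1 of SRC-1 siRNA with glucose (adjusted p = 0.0548) or array 1 of SRC-1 siRNA without glucose (0.0565) was left out. ALDOA, the aldolase of most tissues, rose less, from 13.37 and 13.44 to 13.61 and 13.64 (1.16-fold, adjusted p = 0.0245) and from 13.44 and 13.41 to 13.62 and 13.68 (1.17-fold, adjusted p = 0.0219). Its other tested probe sets differed by 0.18 and 0.20 under control siRNA and were not called there. Under SRC-1 siRNA they differed by 0.21 and 0.34 and were both called higher.

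The next steps are taken by TPI1, which interconverts the triose phosphates, GAPDH, which makes the NADH of glycolysis, and PGK1, which makes the first ATP. TPI1 signals were 13.04 and 13.05 without and 13.09 and 13.22 with glucose under control siRNA (0.11 ± 0.071, not called), and 12.99 and 13.01 against 13.21 and 13.28 under SRC-1 siRNA (0.25 ± 0.071, adjusted p = 0.0205). Its 2 other probe sets were called higher in both arms, at 0.30 and 0.39 under control siRNA and 0.23 and 0.60 under SRC-1 siRNA. PGK1 rose from 13.20 and 13.24 to 13.44 and 13.39 (1.14-fold, adjusted p = 0.0358) and from 13.17 and 13.23 to 13.42 and 13.40 (1.16-fold, adjusted p = 0.0246). GAPDH was called in neither arm. Its signals, 14.20 and 14.25 without and 14.30 and 14.30 with glucose under control siRNA, and 14.22 and 14.20 against 14.31 and 14.29 under SRC-1 siRNA, did not overlap but differed by only 0.074 and 0.091 (SE 0.061). These signals lie near the highest of the arrays, and ALDOA, ENO1, LDHA, PGK1, TPI1 and TKT also lay at 12.99 or above in every array. The part of such high signals in the size of these differences was not tested.

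PGAM1, the phosphoglycerate mutase, rose in both arms. It went from 12.71 and 12.81 to 13.06 and 13.14 under control siRNA (1.26-fold, adjusted p = 0.00377) and from 12.74 and 12.76 to 13.14 and 13.18 under SRC-1 siRNA (1.33-fold, adjusted p = 0.00139). BPGM, which makes the bisphosphoglycerate that loosens oxygen from haemoglobin, was not called (0.13 in both arms, SE 0.091), and its arrays overlapped between the media.

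Of the 3 enolase genes, ENO1 and ENO2 were called higher in both arms and ENO3 was called in neither. ENO2, the gamma enolase of neurons, stood at 7.91 and 8.03 without and 8.66 and 8.53 with glucose under control siRNA, and at 7.98 and 7.78 against 8.62 and 8.62 under SRC-1 siRNA. Its rise of 1.54-fold (0.62 ± 0.088, adjusted p = 6.26e-04) and 1.67-fold (0.74 ± 0.088, adjusted p = 2.48e-04) was the largest from aldolase to pyruvate kinase. ENO1, the alpha enolase of most cells, rose from 13.34 and 13.41 to 13.68 and 13.62 (1.21-fold, adjusted p = 0.00786) and from 13.43 and 13.38 to 13.63 and 13.62 (1.17-fold, adjusted p = 0.0200). Another ENO1 probe set was called higher only under SRC-1 siRNA (0.15 and 0.26), and a dimmer one only under control siRNA (0.33 and 0.17). ENO3, the muscle enolase, differed by -0.15 ± 0.078 and -0.046 ± 0.078 and was not called. Pyruvate kinase PKM, which ends the pathway, rose from 11.04 and 11.09 to 11.50 and 11.42 (1.32-fold, adjusted p = 0.00179) and from 11.11 and 11.01 to 11.60 and 11.58 (1.44-fold, adjusted p = 3.90e-04). A dimmer PKM probe set was not called (0.10 and 0.16), and the mean of both gave 0.25 and 0.35, called in both arms.

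Several of these small rises depended on single arrays or on the processing. In the control siRNA arm the call of ALDOA was lost without array 1 of the group without glucose (adjusted p = 0.130) or array 1 (0.0605) or array 2 (0.0924) of the group with glucose, and that of ENO1 without array 1 of the group without glucose (0.0542). PGK1 lost its call without any of the 4 arrays of this arm or either array of SRC-1 siRNA without glucose (adjusted p between 0.0525 and 0.150), and also with a replicate block (0.0507), no filter (0.0772), only the groups compared (0.0718) or without _s_at and _x_at probe sets (0.13, adjusted p = 0.267). ALDOA lost its call there with no filter (0.0551) or only the groups compared (0.0533). Under SRC-1 siRNA, ALDOA (0.0504) and PGK1 (0.0562) lost theirs with no filter. In the SRC-1 siRNA arm, ENO1 (adjusted p between 0.0532 and 0.107) and PGK1 (between 0.0573 and 0.130) lost theirs without any of its 4 arrays. There ALDOA and TPI1 lost theirs without array 1 (0.0658 and 0.0875) or array 2 (0.104 and 0.0716) of the group without glucose or array 2 of the group with it (0.0980 and 0.101).

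LDHA, the lactate dehydrogenase subunit that favours lactate, was the only analysed gene of the last step. Its signals were 13.97 and 13.99 without and 14.27 and 14.26 with glucose under control siRNA, and 13.97 and 14.00 against 14.29 and 14.28 under SRC-1 siRNA. The arrays of a group lay within 0.03 of each other and the media were apart. It rose 1.22-fold (0.29 ± 0.060, adjusted p = 0.00476) and 1.24-fold (0.31 ± 0.060, adjusted p = 0.00342).

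In the pentose phosphate pathway, 4 of 8 genes were called higher and 1 lower in each arm. Of all genes, 23.6% were called higher and 21.6% lower under control siRNA, and 24.6% and 20% under SRC-1 siRNA. The gene called lower, PGLS, belongs to the oxidative branch, and the 4 called higher, RPE, TKT, PRPS1 and PRPS2, handle pentose phosphates. PGLS, the lactonase of the oxidative branch, stood at 9.78 and 9.80 without and 9.01 and 9.20 with glucose under control siRNA. Under SRC-1 siRNA it stood at 9.77 and 9.72 without and 9.19 and 9.35 with glucose. It fell 1.61-fold (-0.69 ± 0.087, adjusted p = 3.44e-04) and 1.39-fold (-0.48 ± 0.087, adjusted p = 0.00237), and its second probe set was called lower too (-0.47 and -0.34). PGD, the phosphogluconate dehydrogenase that follows it and yields NADPH, differed by 0.0095 and 0.10 (SE 0.064) and was not called.

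Of the reversible branch, RPE, the epimerase of ribulose 5-phosphate, rose from 10.60 and 10.65 to 10.97 and 11.04 (1.30-fold, adjusted p = 0.00282) and from 10.57 and 10.64 to 10.99 and 10.86 (1.25-fold, adjusted p = 0.00732). Another RPE probe set was called higher in both arms (0.33 and 0.30), and a further one was called in neither (0.083 and 0.12). TKT, the transketolase, rose from 13.39 and 13.41 to 13.65 and 13.59 (1.17-fold, adjusted p = 0.0179) and from 13.41 and 13.39 to 13.59 and 13.61 (1.15-fold, adjusted p = 0.0251). TALDO1, the transaldolase, had signals between 12.74 and 12.77 in all 8 arrays, with differences of 0.0026 and -0.011 (SE 0.060). The 95% interval of TALDO1 ran from -0.13 to 0.14 under control siRNA and from -0.15 to 0.13 under SRC-1 siRNA. RPIA, the isomerase that forms ribose 5-phosphate, differed by 0.072 and 0.22 (SE 0.11) and was not called. TKT lost its call under control siRNA without array 1 of either medium (adjusted p = 0.0824 and 0.0844) or array 2 without glucose (0.0581), and under SRC-1 siRNA without any of the 4 arrays (between 0.0732 and 0.104), with no filter (0.0586) or with only the groups compared (0.0507). A second TKT probe set differed by 0.096 and 0.17 and was called in neither arm. Without _s_at and _x_at probe sets TKT was read by a dimmer one, differed by 0.39 and 0.41 and was called in both arms. RPE lost it under SRC-1 siRNA without array 1 of the group without glucose (0.0518) or with it (0.0525).

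PRPS1 and PRPS2, the synthetases that turn ribose 5-phosphate into the phosphoribosyl donor of nucleotide synthesis, had the smallest and the third smallest adjusted p of the 31 genes under control siRNA. PRPS1 stood at 10.39 and 10.38 without and 11.09 and 11.09 with glucose under control siRNA, and at 10.43 and 10.39 against 11.06 and 11.15 under SRC-1 siRNA. It rose 1.63-fold (0.71 ± 0.064, adjusted p = 6.27e-05) and 1.62-fold (0.70 ± 0.064, adjusted p = 6.37e-05). PRPS2 rose 1.60-fold (0.68 ± 0.076, adjusted p = 1.69e-04), from 9.97 and 10.11 to 10.73 and 10.71, and 1.68-fold (0.75 ± 0.076, adjusted p = 1.01e-04), from 9.95 and 10.05 to 10.79 and 10.70. The further probe set of each gene was also called higher in both arms, at 0.66 and 0.58 for PRPS1 and 0.50 and 0.70 for PRPS2.

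Genes with several probe sets were then compared within themselves. Of the 70 probe sets, 3 were array controls for GAPDH, 10 were under the filter and 57 were tested, 26 of them beside the brightest of a gene. These 26 were fitted with all 24655 probe sets of single genes that passed the filter. Under control siRNA 10 were called higher and 1 lower, where 42.8% of all probe sets were called, and under SRC-1 siRNA 13 and 1, where 42.1% were. Of 15 genes with more than 1 tested probe set, 0 had probe sets called in opposite directions in either arm. PGM2 had the widest spread under control siRNA, from -0.10 to 0.42, and TPI1 lay between 0.23 and 0.60 under SRC-1 siRNA. The 5 tested probe sets of PGK1 were all positive, between 0.13 and 0.33 under control siRNA and 0.19 and 0.32 under SRC-1 siRNA, with 3 and 4 of them called. The suffixes _s_at and _x_at mark probe sets that may read several transcripts, and GAPDH, TPI1, PGK1, PGAM1, ENO1 and LDHA have near-identical pseudogenes that an array may not tell apart from them. Without such probe sets 20 of the 31 genes were tested, and 12 were called under control siRNA and 13 under SRC-1 siRNA. The count of further probe sets called fell from 11 to 6 without array 1 of control siRNA without glucose. In the SRC-1 siRNA arm it fell from 14 to 8 without array 2 of the group without glucose and to 9 without either array with glucose.

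**Figure D3:**
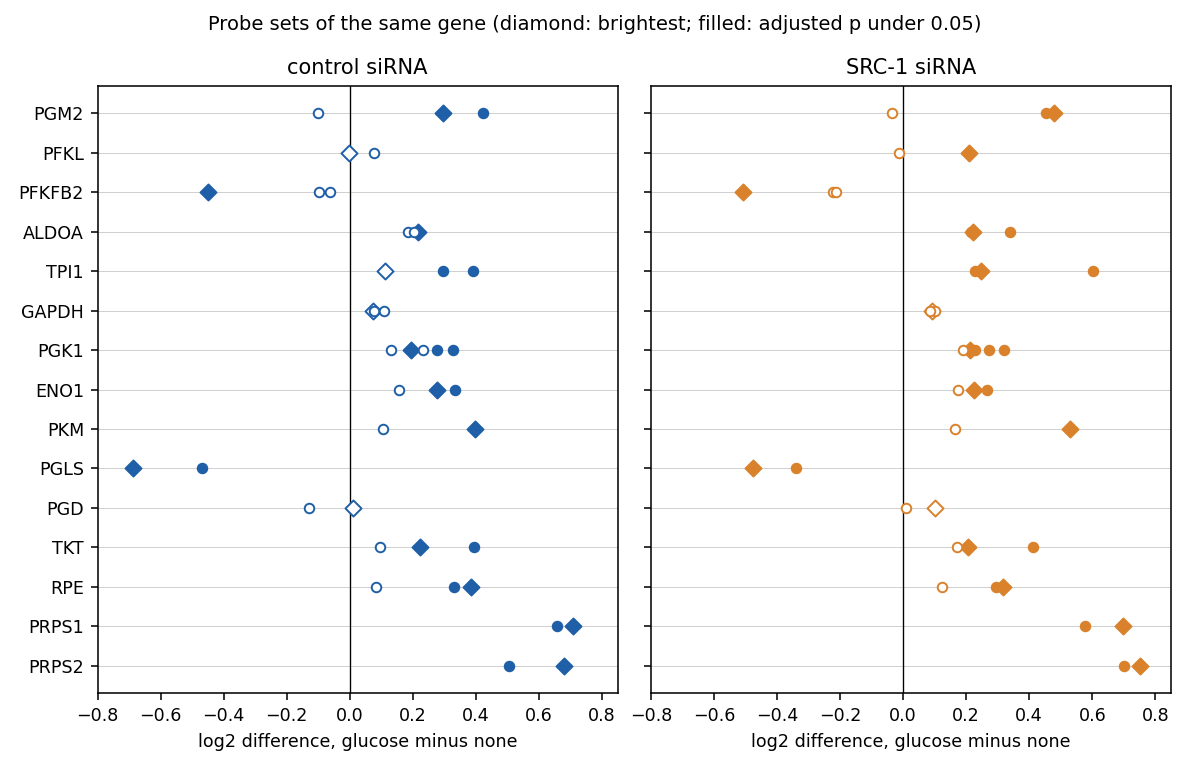
Log2 difference between media for each tested probe set of the 15 genes with more than 1, under control siRNA (left) and SRC-1 siRNA (right). Diamonds mark the brightest probe set of a gene and filled symbols an adjusted p under 0.05. Both probe sets of PRPS1, PRPS2 and PGLS are called in the same direction, while the brightest probe set of PGM2 is called and a dimmer one is not.

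The 3 GAPDH controls read the 5′ end, the middle and the 3′ end of the transcript and were higher with glucose by 0.064, 0.11 and 0.10 under control siRNA and by 0.071, 0.075 and 0.089 under SRC-1 siRNA. The gap between the 3′ and 5′ controls, a sign of RNA quality, was 0.157 ± 0.014 (SD, n = 4) with glucose and 0.130 ± 0.008 without (two-sided exact permutation p = 0.0571, adjusted over 4 tests 0.228). For beta-actin it was 0.573 ± 0.066 and 0.480 ± 0.058 (exact permutation p = 0.143, adjusted 0.286). With 4 arrays against 4 the smallest p possible is 0.0286, and the part of RNA quality in the glucose differences was not tested.

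SRC-1 loss was then compared in each medium. Among the 31 genes 0 were called with glucose, where 0.00736% of all genes were, and 0 without glucose, where 0.0221% were (limma). In each medium 1 gene of the 31 passed 0.05 before adjustment, PFKL with glucose (limma, adjusted p = 0.862), where 5.75% of all genes passed, and ALDOC without (adjusted p = 0.999), where 3.19% did. Averaged over both media 0 of 31 were called, where 0.0294% of all genes were, and ALDOC alone passed before adjustment (0.12 ± 0.051, unadjusted p = 0.0414, adjusted p = 0.986), where 4.96% of all genes did. The differences ran from -0.076 for TIGAR to 0.12 for ALDOC, with a median of 0.019 against 0.0087 for all genes. By the brightest probe sets, the 95% intervals of all 31 genes lay between -0.20 and 0.36 on the log2 scale, with the upper end set by FBP1, which is dim. Of the 26 further probe sets 0 were called, and their differences over both media ran from -0.18 for TKT to 0.15 for PGD. That TKT probe set (95% interval -0.29 to -0.065, limma, adjusted p = 0.821) passed 0.05 before adjustment in each medium. A dim PGK1 probe set differed by -0.17 (95% interval -0.34 to -0.0079, adjusted p = 0.933).

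PFKFB3, the gene with the largest glucose effect, differed by 0.10 between the siRNAs over both media (95% interval -0.036 to 0.24). LDHA differed by 0.014 (95% interval -0.083 to 0.11) and PKM by 0.060 (-0.051 to 0.17). PRPS1 (0.019, -0.085 to 0.12) and PGLS (0.056, -0.085 to 0.20) were not called either. On the same arrays NCOA1 was 8.94-fold lower (-3.16 ± 0.077).

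The difference between the arms was tested as an interaction. It was called for 0 of the 31 genes and for 0% of all genes, and 0 of the 31 had an unadjusted p below 0.05, where 3.42% of all genes did. The nearest were PFKL, whose glucose effect was larger by 0.21 ± 0.095 with SRC-1 siRNA (unadjusted p = 0.0542), and ALDOC, whose effect was smaller (-0.21 ± 0.10, unadjusted p = 0.0732). PGLS fell by less with SRC-1 siRNA (0.21 ± 0.12, unadjusted p = 0.124). The median interaction was 0.022 for the 31 genes and 0.017 for all genes. Since a difference between the arms has a median SE of 0.097, effects of that size were not detectable with 2 arrays a group. Larger effects may have been missed too, since even the difference of 0.21 for PFKL was not called.

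**Figure D4:**
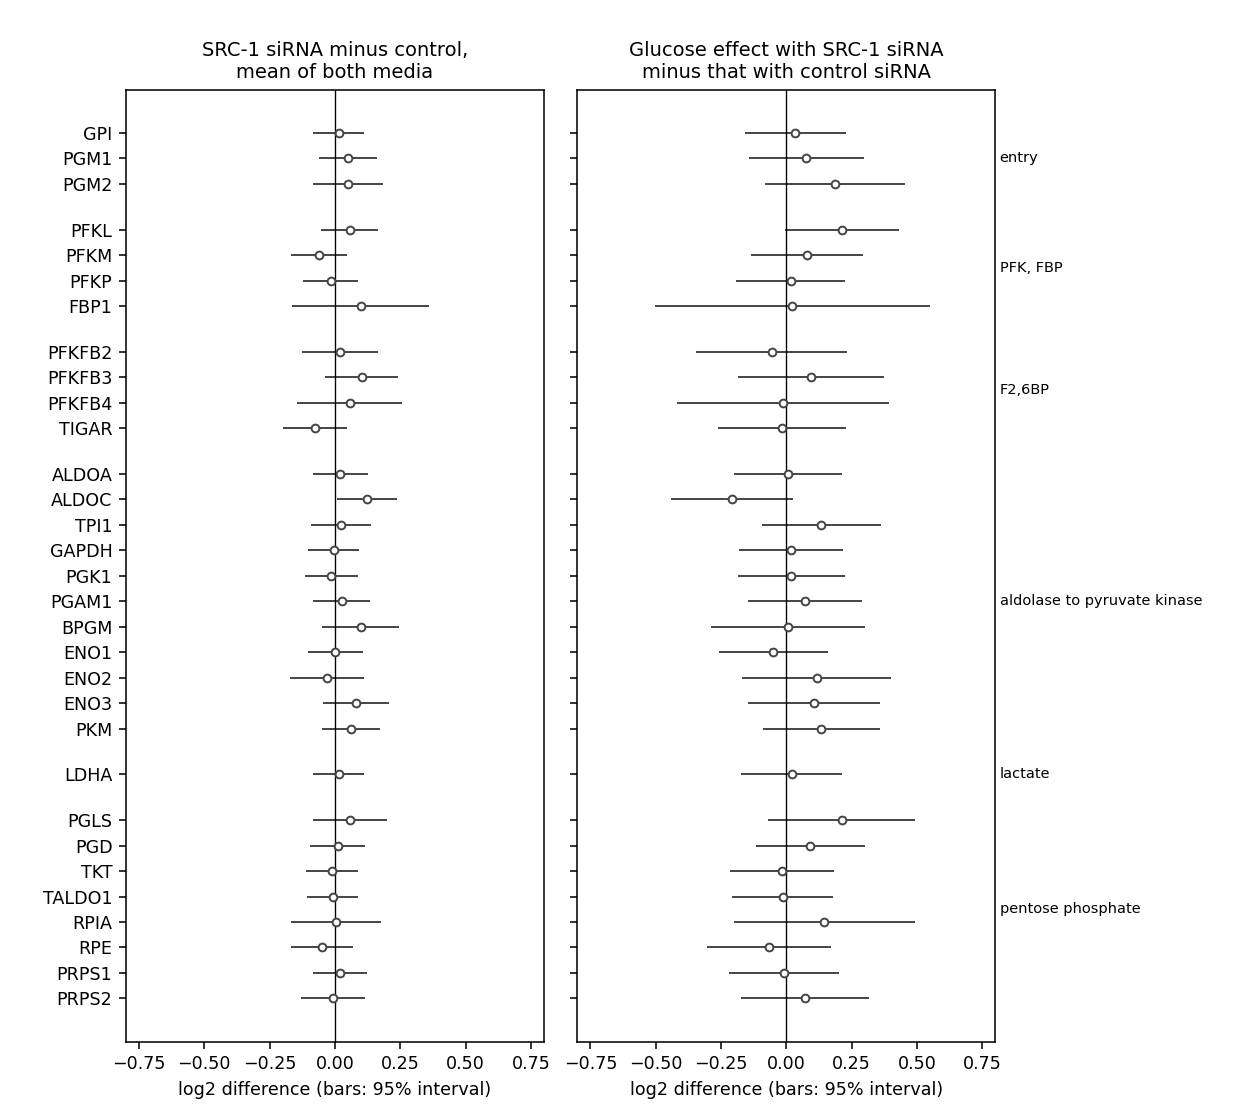
Left, log2 difference between SRC-1 and control siRNA averaged over both media for the 31 genes, and right, the glucose effect with SRC-1 siRNA minus that with control siRNA, with 95% intervals. Every interval crosses 0 except that of ALDOC in the left panel, which starts at 0.0060, and no gene has an adjusted p under 0.05 in either panel.

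Other genes around these pathways were taken from a list of 27, of which 19 were tested. Under control siRNA 3 were called higher and 5 lower, and under SRC-1 siRNA 4 and 5. These calls are 42.1% and 47.4% of the 19, near the 45.2% and 44.7% of all genes called. Upstream, the transporter SLC2A3 (0.67 ± 0.095 and 0.92 ± 0.095) and the hexokinase HK1 (0.42 ± 0.10 and 0.45 ± 0.10) were higher with glucose. HK2 (-2.12 ± 0.11 and -2.17 ± 0.11) and HKDC1 (-1.16 ± 0.074 and -1.24 ± 0.074), 2 further hexokinase genes, were lower, and both changed by more than any of the 31 genes. Around the pentose phosphate pathway, ribokinase RBKS (-1.17 ± 0.12 and -1.15 ± 0.12) and H6PD, the hexose phosphate dehydrogenase of the endoplasmic reticulum (-0.48 ± 0.078 and -0.40 ± 0.078), were lower. The 2 subunits of the mitochondrial pyruvate carrier moved in opposite directions, MPC1 lower (-0.57 ± 0.078 and -0.44 ± 0.078) and MPC2 higher (0.44 ± 0.088 and 0.56 ± 0.088). LDHC, the lactate dehydrogenase of testis, was called higher under SRC-1 siRNA (0.44 ± 0.13) and missed the threshold under control siRNA (0.35 ± 0.13, adjusted p = 0.0513). The difference between the arms was not called (0.083 ± 0.18). LDHB, the other main subunit of lactate dehydrogenase, was not called (0.13 and 0.11, SE 0.060). SRC-1 siRNA called 0 of the 19 in either medium and 0 averaged over both (limma). Before adjustment 1 passed 0.05 with glucose, where 5.75% of all genes did, and 1 without, where 3.19% did. Averaged over both media 3 passed before adjustment, MPC1, ADPGK and LDHC, where 4.96% of all genes did.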

How the data were processed

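The authors deposited 1 table of signals for 8 one-colour Affymetrix arrays, used here as log2 values. The base was inferred from the values, and background correction, probe summary and normalization are not given in the sources used here. Biotinylated cRNA came from RNeasy-purified RNA, per the labels' protocols. Scanner files and detection calls were not used here. Gene names came from the platform annotation (41091 probe sets with 1 gene, 1801 with several, 11721 not listed, 62 controls), of which 41037 matched RefSeq by Entrez identifier. Probe sets below the 40th percentile of mean signal (4.80) were dropped, and the brightest was kept per gene.

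All 8 arrays entered one limma model (limma 3.58.1, R 4.3.3) with a mean per group, 4 residual and 4.35 prior degrees of freedom, two-sided moderated tests and Benjamini-Hochberg adjustment over 13584 genes. Promoters and exact tests used Python 3.11.15 with scipy 1.17.1. Differences are glucose minus none, or SRC-1 siRNA minus control. Nothing says how replicate cultures were kept apart, so p-values cover only the spread among these arrays, which may be technical. In 10 simulations of the control arm with 200 changed genes among 13584, changes of 1.2-fold were recovered in 5.97% of cases, those of 1.5-fold in 65.8% and those of 2-fold in 90.3%. With so few changed genes the threshold is stricter than in the real glucose comparisons. Members, lists, comparisons and alternatives were chosen with earlier results of these data known. Array values are given for every gene called in either glucose comparison and for GPI and GAPDH, which were not called and were chosen after their values were seen.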

Additional observations from a re-analysis of the deposited data

How the results depend on the processing

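Alternatives were quantile normalization, median centring, a filter at the 60th percentile or none, the mean of probe sets, no _s_at or _x_at probe sets, a trended prior, only the groups compared, a replicate block and leaving out each array. Quantile normalization of the RNA quality gap and the block on further probe sets were added after seeing the data. In every one that tested the gene, 13 of 18 calls under control siRNA and 12 of 20 under SRC-1 siRNA remained, and no called gene changed sign. The count of 20 fell to 13 of 20 genes tested without _s_at and _x_at probe sets. Without single arrays the counts ranged from 13 to 18 under control siRNA and 12 to 20 under SRC-1 siRNA, and for further probe sets from 6 to 10 and 8 to 14. The SRC-1 siRNA and interaction counts stayed at 0 in every alternative (limma). Over all genes the SRC-1 siRNA counts of 1 with glucose, 3 without and 4 averaged became 3, 5 and 7 with a trended prior. With glucose the filter at the 60th percentile gave 2. Without glucose no filter, the replicate block and only the groups compared gave 1, and leaving out arrays gave 1 to 2, or 2 to 3 averaged. GAPDH (adjusted p = 0.0280) and GPI (0.0178) were called higher under SRC-1 siRNA and PGM1 lower under control siRNA (0.0356) with a trended prior. TPI1 was called higher under control siRNA with the mean of probe sets (adjusted p = 0.00851) or without _s_at and _x_at (0.0395).

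Signs changed only for genes not called in the full data. No value with a changed sign was a call. The -0.39 given below for FBP1 kept the sign of the full data. Under control siRNA, PFKL stood at 0.0016 with median centring and 0.037 with the mean of probe sets, and at -0.027 to 0.023 without single arrays. PGD stood at -0.060 with the mean of probe sets and at -0.025 to 0.044 without single arrays, RPIA at -0.074 to 0.22, and TALDO1 at -0.0073 to 0.013. Under SRC-1 siRNA, TALDO1 stood at 0.010 with median centring, and without single arrays ENO3 at -0.11 to 0.018 and FBP1 at -0.39 to 0.16. The SRC-1 siRNA difference of FBP1 over both media stood at -0.040 to 0.24. Quantile normalization moved the 3′ to 5′ gap difference of GAPDH from 0.027 to 0.041.

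Deviations of same-numbered arrays correlated between -0.096 and 0.12 over 6 pairs of groups, which shows no strong effect shared by replicate number. These correlations, from so few arrays a group, cannot tell whether same-numbered cultures were set up together, which the labels do not state. With a replicate block the counts were 17 under control siRNA and 20 under SRC-1 siRNA, with PGK1 alone losing a call. For further probe sets they were 10 and 14. Signal over background was not analysed here, so low signals such as FBP1 have unknown precision.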

Other observations

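Probe sets under the filter were not tested and are given as values. A PGK1 probe set with a mean signal of 4.25 differed by 0.32 under control siRNA, within the 0.13 to 0.33 of the tested PGK1 probe sets, and by 0.96 under SRC-1 siRNA, where those lay between 0.19 and 0.32. In it all 4 arrays with glucose lay above the 4 without. A PFKFB4 probe set with a mean signal of 4.38 differed by -0.0081 and 0.025, where the brightest differed by 0.57 and 0.56. An ENO1 probe set with a mean signal of 4.67 differed by -0.14 and -0.12, where the brightest differed by 0.28 and 0.23. In both of these the media overlapped. Which transcripts these probe sets read was not tested.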
